A study of Mus musculus with 5 samples.

Results

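The genes described are 9 members of the Notch pathway among the 41388 genes of a count table from brain microglia: the receptors Notch1, Notch2 and Notch4, the ligands Jag1 and Jag2, the DNA-binding factor Rbpj, and the targets Hes1, Hey1 and Nrarp. They were taken by gene symbol, and each matched 1 row of the table. RNA was sequenced from eYFP-positive cells sorted from brains of C57Bl/6 mice aged 4 weeks, which had received 2 mg of tamoxifen on postnatal days 14 and 16. The A20 deletion group holds 3 libraries, with the genotype eYFP-A20Dmg, which the series describes as fully deficient for A20. The control group holds 2 libraries, with the genotype eYFP-A20fl/wt Cx3cr1-CreERT2/+, described as partially deficient, so the comparison is not one with wild-type cells. The labels do not spell out the alleles behind A20Dmg. In the control genotype Cre comes from the Cx3cr1 locus, which is also active in other myeloid cells. The labels do not say that each library is its own animal, so p-values measure only how these samples vary.

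Notch receptors are single-pass membrane proteins that are activated by ligands of the Jagged and Delta families on a neighbouring cell. Ligand binding exposes the receptor to ADAM proteases and then to gamma-secretase, and the released intracellular part enters the nucleus and joins Rbpj and a Mastermind protein to switch on targets such as the Hes and Hey repressors and Nrarp. Nrarp binds this nuclear complex and limits it. In the brain the pathway is known for keeping neural progenitors undifferentiated and for shaping blood vessels, and macrophages use it in inflammatory activation. A20, the product of Tnfaip3, edits ubiquitin chains and damps NF-kB signalling.

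Libraries held between 9726334 and 15275199 counts, and 3 counts corresponded to between 0.196 and 0.308 CPM, the usual scaling of counts to a common library total. CPM uses library totals after TMM scaling (edgeR's trimmed mean of log ratios), and ± is the SD between libraries. Tnfaip3 stood at 295, 277 and 348 CPM in A20 deletion replicates 1 to 3, against 454 and 94.8 CPM in the controls. These whole-gene counts cannot serve as a test of the deletion: the removed exons are not named, and the controls carry a floxed allele too. The A20 deletion libraries were not alike. The mitochondrial share of counts was 0.848%, 4.63% and 3.56% in A20 deletion replicates 1 to 3, against 1.19% and 0.852% in the controls. Genes with more exon bases than the median tested gene held 44.9%, 37.8% and 38.5% of the tested counts in A20 deletion replicates 1 to 3, against 48% (control replicate 1) and 46.8% (control replicate 2). Xist had 616, 0 and 0 counts in A20 deletion replicates 1 to 3, against 780 and 0 in the controls, and Y-linked genes had 7, 2257 and 1304 counts in A20 deletion, against 14 and 2175 in control. Each group thus held libraries from both sexes, so its spread is not that of repeated libraries of 1 animal. Whether A20 deletion replicates 2 and 3 share an animal is not stated. Microglial markers were abundant in every library: 10 of them summed to between 48600 and 52410 CPM in A20 deletion and to 57710 and 63440 CPM in control.

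Nrarp, Jag2 and Notch4 were lower in the A20 deletion libraries, Notch1 and Notch2 were lower in A20 deletion replicates 2 and 3 and not in replicate 1, Rbpj stood slightly above the controls, Hes1 overlapped between the groups, and Jag1 and Hey1 were near the detection limit in both. Because these 9 genes were chosen with this same comparison known, their differences are given as a description and nothing is read from their number. In edgeR's quasi-likelihood test over all 12240 genes with enough counts, 3 of the 8 tested members had an adjusted p under 0.05, all 3 lower. Of all genes tested 62 (0.507%) were called lower, 255 (2.08%) higher, and 317 (2.59%) were called in either direction. The median log2 fold change was -0.69 over the 8 tested members and 0.05 over all genes tested. In a bulk measurement fewer cells of a type and less RNA per cell cannot be told apart.

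**Figure D1:**
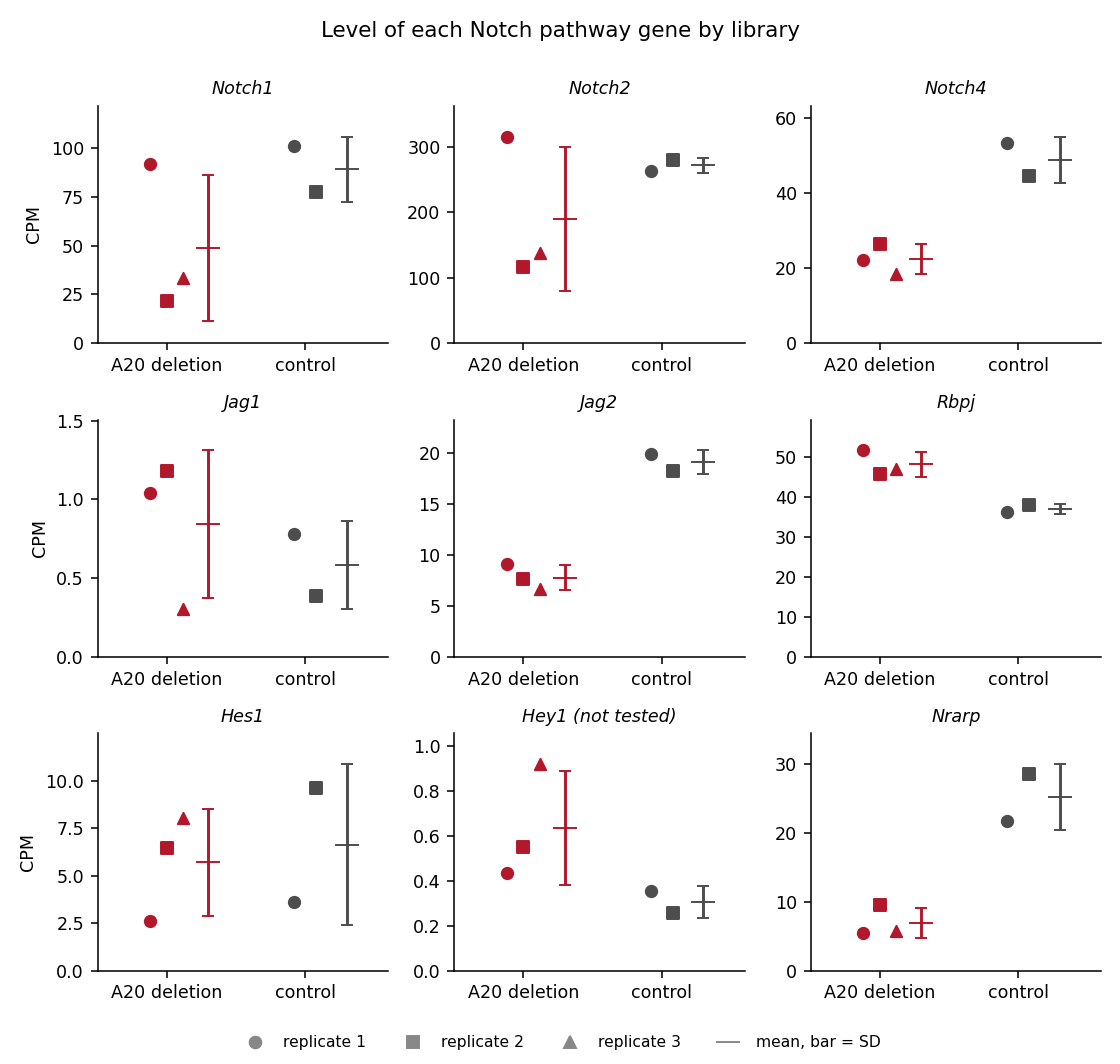
CPM (linear axis from 0) of each of the 9 Notch pathway genes in the 3 A20 deletion libraries (left, red) and 2 control libraries (right, grey), with the group mean and SD beside the points. Notch4, Jag2 and Nrarp have no overlap between the groups, with the A20 deletion libraries lower, and Notch1 and Notch2 split the A20 deletion libraries.

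Nrarp (ENSMUSG00000078202, GRCm38 chromosome 2, 25180758 to 25183339) is a small ankyrin repeat protein that is itself induced by Notch and acts as a negative feedback regulator. It was measured at 5.54, 9.51 and 5.81 CPM in A20 deletion replicates 1 to 3, against 21.8 and 28.5 CPM in control replicates 1 and 2. The raw counts behind these values were 64, 121 and 57 in the A20 deletion libraries and 306 and 445 in the controls. All 3 A20 deletion libraries lay below both controls, and the highest of them was less abundant than the lower control by more than the SD of either group. Means were 6.95 ± 2.22 CPM in A20 deletion (n = 3) and 25.2 ± 4.79 CPM in control (n = 2), a log2 fold change of -1.85 (SE 0.29), or 3.6-fold lower. An annotated antisense transcript on the opposite strand overlaps 2051 bases of the Nrarp exons, and without a stated strand setting reads of both cannot be told apart. The same holds for 1068 and 414 exon bases of Notch1 that lie under antisense transcripts, which had 13 and 6 counts over all libraries.

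The other target genes were not lower in all A20 deletion libraries. Hes1 encodes a basic helix-loop-helix repressor and is a classical Rbpj target. Its level was 2.6, 6.45 and 8.05 CPM in A20 deletion replicates 1 to 3, against 3.63 and 9.62 CPM in the controls, so the groups overlapped. The log2 fold change was -0.22 (SE 0.57). It changed sign to 0.59 without control replicate 2 and to 0.10 without A20 deletion replicate 1. In 15 of the 17 alternative settings it stayed below 0, down to -1.34 without A20 deletion replicates 2 and 3. With a factor for libraries with Xist, chosen after seeing the data, it was -0.44 (SE 0.29). The libraries with Xist, A20 deletion replicate 1 and control replicate 1, were the lowest of their groups, and a link was not tested. Hes1 was lower in replicate 1 than in the other libraries of both groups. Hey1, a related repressor prominent in arterial endothelium, was near the limit of detection, with 5, 7 and 9 counts in the A20 deletion libraries, against 5 and 4 in the controls, and did not have enough counts to be tested. In CPM it stood at 0.433, 0.55 and 0.917 in A20 deletion replicates 1 to 3, against 0.356 and 0.257 in the controls, so the A20 deletion libraries lay above both controls, opposite to Nrarp. Summed counts were 21 in A20 deletion and 9 in control, a ratio of 2.03 with an exact 95% interval of 0.891 to 5.03 that covers counting error only and includes 1.

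Among the receptors, Notch4 differed in all 3 A20 deletion libraries. Notch4 (ENSMUSG00000015468, chromosome 17, 34564268 to 34588503) is the receptor best known from vascular endothelium. It stood at 22.2, 26.4 and 18.4 CPM in A20 deletion replicates 1 to 3, against 53.3 and 44.6 CPM in the controls. No A20 deletion library reached the lower control. Group means were 22.3 ± 3.99 CPM in A20 deletion and 48.9 ± 6.15 CPM in control (n = 3 and 2), a log2 fold change of -1.13 (SE 0.20), or 2.19-fold lower.

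Notch1 and Notch2, the receptors with the broadest expression across tissues, divided the A20 deletion libraries instead. Notch1 (ENSMUSG00000026923, chromosome 2, 26457903 to 26516663) was at 91.7, 21.5 and 33.6 CPM in A20 deletion replicates 1 to 3, against 101 and 77.5 CPM in the controls. Notch2 (ENSMUSG00000027878, chromosome 3, 98013527 to 98150361) was at 316, 116 and 138 CPM in A20 deletion replicates 1 to 3, against 264 and 280.1 CPM in the controls. Replicate 1 thus lay between the controls for Notch1 and above both for Notch2, while replicates 2 and 3 lay below both controls for each gene. Fold changes over all libraries were -0.87 (log2, SE 0.54) for Notch1 and -0.52 (SE 0.41) for Notch2. They were -1.73 and -1.13 without A20 deletion replicate 1, and 0.05 and 0.22 with replicates 2 and 3 both left out.

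These are long transcripts, with 14232 and 10782 annotated exon bases for Notch1 and Notch2, where the median tested gene has 4427. After each library's trend with gene length was removed, the log2 fold changes were -0.68 for Notch1 and -0.34 for Notch2, and with the mitochondrial share as a covariate they were -0.09 and 0.12. The length and mitochondrial shares of replicates 2 and 3 move with both genes, and their part in these values was not tested further. Of all tested genes 25.8% had A20 deletion replicates 2 and 3 below the other 3 libraries, as did 22 of the 57 other tested Notch pathway genes (38.6%). Spen, a corepressor that binds Rbpj and was picked from these 22 for its 14089 exon bases after its values were seen, was at 56.4, 17.7 and 18.2 CPM in A20 deletion replicates 1 to 3, against 62.8 and 53.1 CPM in the controls.

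Jag2 (ENSMUSG00000002799, chromosome 12, 112907819 to 112929776), a membrane ligand that activates receptors on neighbouring cells, was the ligand whose groups separated. It was counted at 9.1, 7.62 and 6.62 CPM in A20 deletion replicates 1 to 3, against 19.9 and 18.3 CPM in the controls. Each A20 deletion library was at about the same level, and the gap to the controls was several times the SD within a group. Means were 7.78 ± 1.25 CPM in A20 deletion and 19.1 ± 1.16 CPM in control (n = 3 and 2), a log2 fold change of -1.29 (SE 0.22), or 2.45-fold lower. Jag1, the other Jagged ligand, had 12, 15 and 3 counts in the A20 deletion libraries, against 11 and 6 in the controls. Both groups sat close to the 3-count floor and overlapped, and the ratio of summed counts was 1.53 with an exact 95% interval of 0.82 to 2.97.

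Rbpj (ENSMUSG00000039191, chromosome 5, 53466152 to 53657362), through which the mammalian Notch receptors signal to DNA, stood at 51.5, 45.7 and 47 CPM in A20 deletion replicates 1 to 3, against 36.1 and 37.8 CPM in the controls. The A20 deletion libraries were all above both controls, by a small margin, at 48.1 ± 3.09 CPM in A20 deletion and 37 ± 1.26 CPM in control. The log2 fold change was 0.38 (SE 0.16) and did not reach the threshold, and groups did not overlap in 40.2% of all genes tested, with 18.5% lower in all A20 deletion libraries. Over the alternative settings this value lay between 0.30 and 0.65.

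Promoter sequence of Nrarp, Notch4 and Rbpj, whose groups did not overlap, is shown so that the letters bound by Rbpj can be looked for beside their levels. The RefSeq promoter table (GRCm38.p6) held 8 windows for 7 of the 9 genes, and Hes1 and Hey1 had no entry. No sequence is shown for Jag2, whose groups also did not overlap, because all bases of its window before the start lie in annotated exons. The windows shown hold bases upstream of the RefSeq start, and leave out bases that lie in an annotated exon. Capitals mark matches to the Rbpj core TGGGAA, searched on both strands.
Nrarp, chr2:25180508-25180757, plus strand: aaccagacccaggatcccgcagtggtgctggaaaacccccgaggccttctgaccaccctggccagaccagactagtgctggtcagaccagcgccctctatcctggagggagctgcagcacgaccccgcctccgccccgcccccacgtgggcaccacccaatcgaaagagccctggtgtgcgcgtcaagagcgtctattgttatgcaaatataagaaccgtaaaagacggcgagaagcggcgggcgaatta
Notch4, chr17:34564045-34564267, plus strand: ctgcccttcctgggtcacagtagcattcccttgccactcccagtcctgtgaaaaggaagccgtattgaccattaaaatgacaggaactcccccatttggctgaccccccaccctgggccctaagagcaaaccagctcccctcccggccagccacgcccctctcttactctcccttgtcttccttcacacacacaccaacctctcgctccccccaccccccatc
Rbpj, chr5:53590096-53590213, plus strand: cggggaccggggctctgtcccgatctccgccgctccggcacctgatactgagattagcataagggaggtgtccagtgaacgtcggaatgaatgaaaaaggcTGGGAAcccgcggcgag

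Neither the Nrarp window nor the Notch4 window held TGGGAA, and the Rbpj stretch held it, 144 bases before the start. That Rbpj start lies inside the annotated gene, which begins at 53466152, whereas the Nrarp and Notch4 windows end where those genes begin. Which Rbpj start these cells use was not examined. Over the full 250 bases upstream, 2 of the 8 windows, both of Rbpj, had the core, against 21.6% of 32841 windows in the table, and 23.6% of 72 windows of the other Notch pathway genes. The 2 Rbpj windows overlap and share the same match on the opposite strand, so they are not separate cases. The longer GTGGGAA was in 0 of the 8 windows, against 5.41% of all. The longer motif contains the core, and no match says only that these letters are absent from this window.

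Levels can be set side by side between genes only per length. Per kilobase of annotated exon, Notch2 was the most abundant member in both groups, at 17.6 ± 10.2 CPM per kilobase in A20 deletion and 25.2 ± 1.06 in control. Nrarp followed in the controls at 9.74 ± 1.86 CPM per kilobase. In A20 deletion, at 2.69 ± 0.859, it lay within the spread of Notch1, Hes1 and Notch4, which stood between 2.77 and 3.44. The mean of Rbpj was higher, at 3.77 ± 0.242, but in A20 deletion replicate 2 Nrarp (3.68) stood above Rbpj (3.58). In the controls Notch1 (6.27 ± 1.17) and Notch4 (6.07 ± 0.763) did not differ beyond their spread, nor did Hes1 (3.25 ± 2.08), Rbpj (2.9 ± 0.0988) and Jag2 (2.74 ± 0.166). Jag2 stood at 1.12 ± 0.179 CPM per kilobase in A20 deletion. Jag1 and Hey1 were lowest in both groups, at 0.144 and 0.194 CPM per kilobase in A20 deletion and 0.1 and 0.0938 in control. With the longest transcript as the length, Notch1 in the controls stood at 9.41 CPM per kilobase, within the spread of Nrarp at 9.74, so the second place of Nrarp depends on the length used. With that length Rbpj stood at 8.76 in A20 deletion and 6.74 in control, since that transcript holds 5485 of its 12750 exon bases.

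The rest of the pathway was examined in 68 further genes taken from general knowledge of Notch signalling and not for how they moved, of which 57 had enough counts. These genes are what was left once the 9 members, chosen with this comparison known, were set aside. The number of calls among them therefore depends on that choice, and nothing is read from it. None was called higher and none lower by edgeR, where 2.59% of all genes were called. At an unadjusted p under 0.05 there were 9 higher and 4 lower, 13 of 57, against 21% of all genes tested. DESeq2 called Notch3, Neurl1b and Nedd4 higher and Numb lower, where it called 5.28% of all genes higher, 2.7% lower and 7.98% in all. The median log2 fold change of the 57 genes was -0.05.

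**Figure D2:**
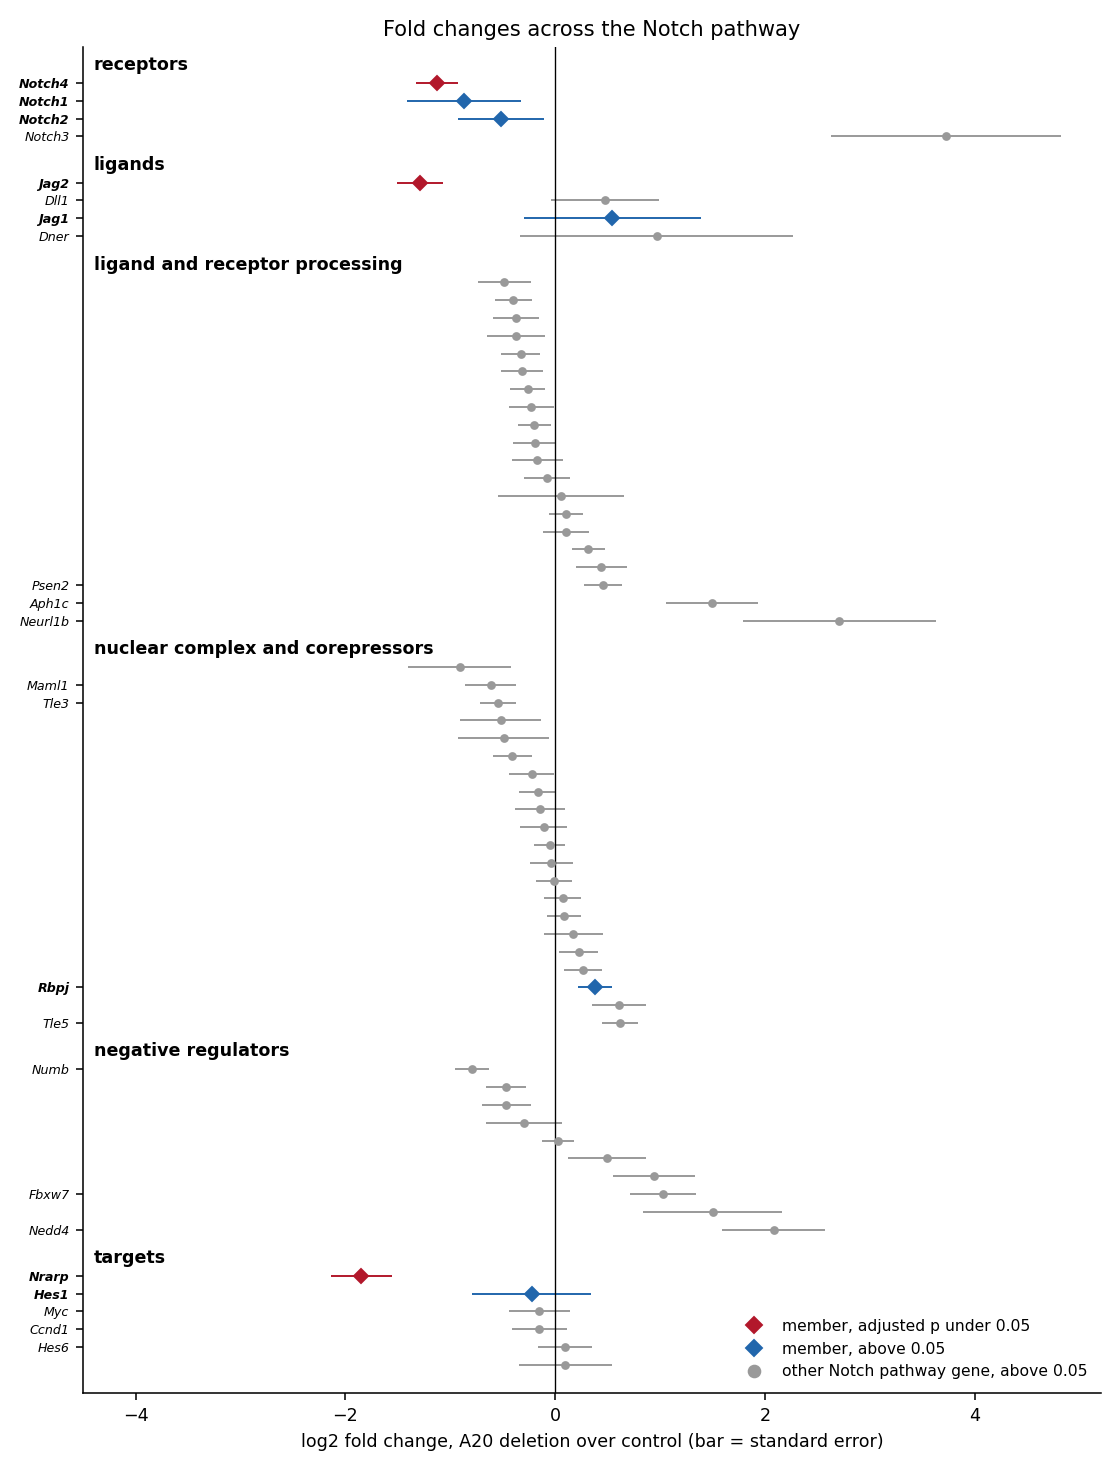
Log2 fold change (A20 deletion over control, linear axis) with its standard error for the 8 tested members (diamonds) and 57 other tested Notch pathway genes (circles), grouped by role. Names are given for the members and for up to 3 other genes of each role with the smallest p. Red diamonds are the 3 members with an adjusted p under 0.05, Nrarp at -1.85, Jag2 at -1.29 and Notch4 at -1.13.

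The fourth receptor, Notch3, which is typical of mural cells of blood vessels, had 23, 15 and 11 counts in the A20 deletion libraries, against 0 and 3 in the controls. The ratio of summed counts was 14.2, with an exact 95% interval of 4.58 to 71.3 that covers counting error only, and edgeR's adjusted p was 0.14. Summed over 8 mural cell markers, led by Rgs5, the level was 6.67, 14.1 and 18.5 CPM in A20 deletion replicates 1 to 3, against 8.89 and 4.49 CPM in the controls. Without Rgs5 the other 7 summed to 4.16, 8.88 and 9.78 CPM in A20 deletion replicates 1 to 3, against 2.92 and 3.21 CPM in the controls. Their part in the Notch3 value was not tested. Among the further ligands Dll1 stood at 2.62 ± 0.251 CPM in A20 deletion and 1.89 ± 0.949 CPM in control (edgeR adjusted p = 0.602). Dner, a ligand known from neurons, stood at 1.02 ± 1.02 CPM in A20 deletion and 0.513 ± 0.181 CPM in control (edgeR adjusted p = 0.675).

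None of the 20 genes that process ligands and receptors passed the test, among them Adam10, a protease that cuts the receptor and is given here for its role, outside the rule for named genes. It stood at 545 ± 117 CPM in A20 deletion and 680 ± 22.7 CPM in control (edgeR adjusted p = 0.379). The smallest p of the 20 belonged to Aph1c, a gamma-secretase subunit, at 4.18 ± 0.855 CPM in A20 deletion and 1.48 ± 0.0826 CPM in control (log2 fold change 1.49, SE 0.44, edgeR adjusted p = 0.139). Its close paralog Aph1b, at 1.84 ± 0.713 CPM in A20 deletion and 1.76 ± 0.778 CPM in control, could share reads with it. Neurl1b, a ubiquitin ligase that acts on Notch ligands, stood at 3.92 ± 0.682 CPM in A20 deletion and 0.601 ± 0.759 CPM in control (edgeR adjusted p = 0.177). The catalytic subunit Psen2 was at 44.3 ± 3.37 CPM in A20 deletion and 32.3 ± 5.56 CPM in control (edgeR adjusted p = 0.224).

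Of 20 tested nuclear cofactors, Tle5 was at 136 ± 2.4 CPM in A20 deletion and 88.8 ± 15.9 CPM in control, with a log2 fold change of 0.62 (SE 0.17, edgeR adjusted p = 0.125). Its relative Tle3 was at 138.6 ± 19.1 CPM in A20 deletion and 202 ± 2.8 CPM in control (log2 fold change -0.54, SE 0.17, edgeR adjusted p = 0.153). Maml1, the Mastermind coactivator, stood at 36.3 ± 9.86 CPM in A20 deletion and 55.6 ± 8.07 CPM in control (edgeR adjusted p = 0.217).

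Numb, an adaptor that removes Notch receptors from the membrane, came closest to the threshold of the 57 genes. It was at 156, 159 and 134 CPM in A20 deletion replicates 1 to 3, against 238 and 282 CPM in the controls. All A20 deletion libraries lay below both controls, with a log2 fold change of -0.79 (SE 0.17, edgeR adjusted p = 0.0608). The adjusted p ranged from 0.000802 to 0.412 over the alternative settings, and the fold change from -0.95 to -0.71. The ubiquitin ligase Nedd4 was at 5.98, 13.4 and 18.8 CPM in A20 deletion replicates 1 to 3, against 2.85 and 3.14 CPM in the controls (log2 fold change 2.08, SE 0.49, edgeR adjusted p = 0.0846). Replicate 1 was the lowest of the A20 deletion libraries and still above both controls. Fbxw7, which marks the Notch intracellular part for degradation, stood at 25.3 ± 8.43 CPM in A20 deletion and 12.4 ± 2.01 CPM in control (edgeR adjusted p = 0.149).

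Of the other target genes 4 were tested and none passed. Ccnd1 was at 161 ± 50.7 CPM in A20 deletion and 179 ± 14.3 CPM in control, Myc at 42.8 ± 2.56 CPM in A20 deletion and 47.7 ± 23.1 CPM in control, and Hes6 at 21.1 ± 5.45 CPM in A20 deletion and 19.7 ± 2.14 CPM in control. Their edgeR adjusted p lay between 0.747 and 0.847. Hes5, Hes7, Hey2, Heyl and Il2ra had between 0 and 9 counts in any library and were not tested.

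Several of the 9 genes are used by vascular endothelium, so endothelial markers were set beside them. The 12 markers summed to 133, 67.9 and 67.9 CPM in A20 deletion replicates 1 to 3, against 68.3 and 74.5 CPM in the controls, and 0 of the 10 tested were called. Pecam1, which leukocytes also express, made up much of that sum. The other 11 summed to 107, 32.7 and 39.9 CPM in A20 deletion replicates 1 to 3, against 17.7 and 21.4 CPM in the controls. Every A20 deletion library was above both controls in that sum. The groups did not overlap for 7 higher markers (Cldn5, Cdh5, Flt1, Kdr, Tie1, Ly6c1 and Slco1a4) and for 1 lower marker, Pecam1. Of all genes tested, 40.2% did not overlap in either direction, and 18.5% were lower in all A20 deletion libraries. The part of endothelial RNA in the Notch values was not tested. The junction gene Cldn5 stood at 19.8, 2.67 and 7.44 CPM in A20 deletion replicates 1 to 3, against 0.142 and 1.92 CPM in the controls. Cdh5, the endothelial cadherin, stood at 6.5, 4.25 and 2.55 CPM in A20 deletion replicates 1 to 3, against 1.35 and 2.25 CPM in the controls. Both markers lay above both controls in every A20 deletion library, whereas Pecam1, like Nrarp, Jag2 and Notch4, lay below. Pecam1, an adhesion molecule, stood at 26.2, 35.2 and 28 CPM in A20 deletion replicates 1 to 3, against 50.6 and 53.1 CPM in the controls. The von Willebrand factor gene Vwf, an endothelial gene picked once its values were known, was at 116, 0.629 and 1.43 CPM in A20 deletion replicates 1 to 3, against 0.213 and 1.09 CPM in the controls. In that replicate 1, where Cldn5 and Vwf were highest, Notch4 was at 22.2 CPM, within the range of the other A20 deletion libraries. Any link between these levels was not tested.

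**Figure D3:**
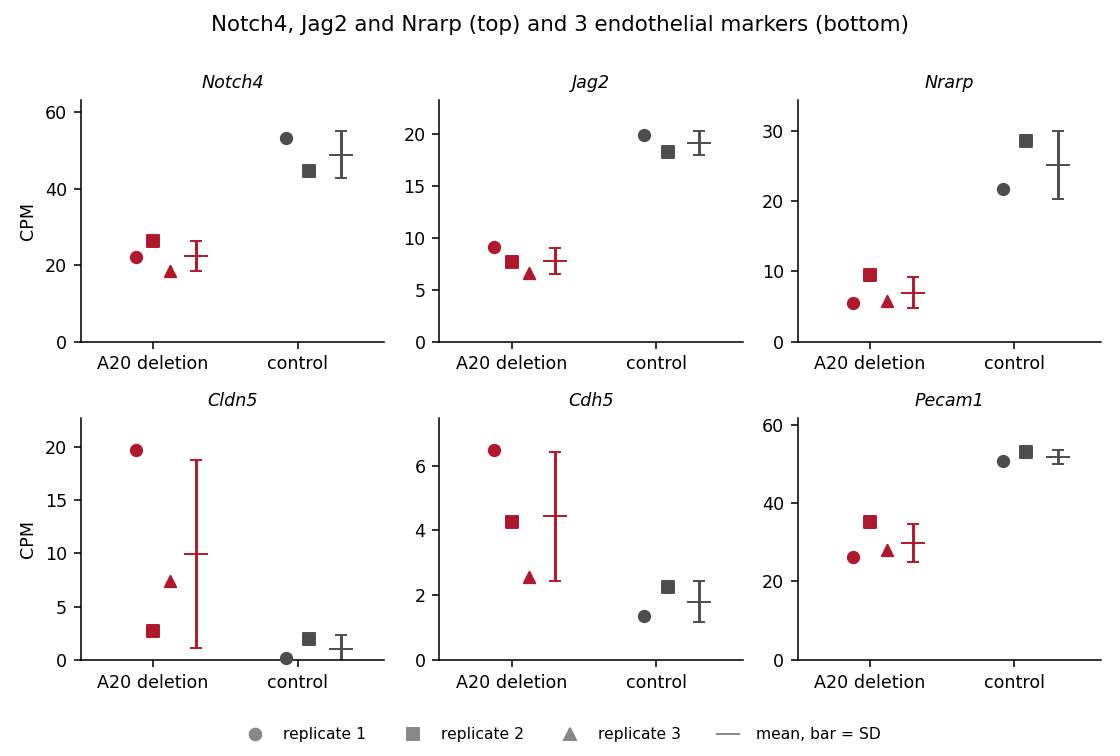
CPM (linear axis from 0, error bars cut at 0) of Notch4, Jag2 and Nrarp (top) and of the endothelial markers Cldn5, Cdh5 and Pecam1 (bottom) in A20 deletion (left, red) and control (right, grey) libraries, with group mean and SD. The top genes and Pecam1 are lower in A20 deletion, and Cldn5 and Cdh5 are higher, most of all in replicate 1, with Cldn5 at 19.8 CPM.

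Markers of other cells were low against the microglial sum, which Csf1r led and in which Fcrls was called lower. Summed CPM ranged from 199.8 to 428 in A20 deletion and from 177 to 257 in control for 8 astrocyte markers, led by Slc1a3, with Aldh1l1 called higher. For 8 oligodendrocyte lineage markers, led by Cnp, the sums were 253 to 347 CPM in A20 deletion and 192 to 216 CPM in control. For 8 neuronal markers, led by Snap25, they were 10.1 to 17.2 CPM in A20 deletion and 3.72 to 7.97 CPM in control. For 10 T and NK cell markers, led by Cd4, they were 6.45 to 8.66 CPM in A20 deletion and 0.64 to 1.219 CPM in control. For 6 monocyte markers, led by Plac8, which was called higher, they were 25.4 to 45.2 CPM in A20 deletion and 11.8 to 16.8 CPM in control. Without Plac8 the sums of the other 5 monocyte markers overlapped between the groups. They were 14.6, 8.73 and 12.4 CPM in A20 deletion replicates 1 to 3, against 13.8 and 9.17 CPM in the controls. Ccr2 was lower in every A20 deletion library, at 8.14, 5.19 and 5.5 CPM, against 11.5 and 8.21 CPM in the controls. Ly6c2 and S100a4 went the other way, above both controls in every A20 deletion library, and Chil3 and Vcan overlapped. Ly6c2 had 12, 7 and 12 counts in A20 deletion replicates 1 to 3, against 1 and 0 in the controls. S100a4 stood at 3.03, 1.65 and 5.7 CPM in A20 deletion replicates 1 to 3, against 0.854 and 0.898 CPM in the controls. Dendritic cell markers, led by Zbtb46 and with Cd209a at 0 in every library, summed to 11.4 to 12.8 CPM in A20 deletion and 6.47 to 7.18 CPM in control. The oligodendrocyte, neuronal, T and NK cell and dendritic cell sums were thus above both controls in every A20 deletion library with or without the leading marker, and their part in the Notch values was not tested. B cell markers, led by Cd79b, summed to 37.9 to 50.8 CPM in A20 deletion and 39.1 CPM in both controls. Border macrophage markers, led by Mrc1, gave 77.9 to 91.5 CPM in A20 deletion and 54.9 to 118 CPM in control, and neutrophil markers, led by S100a9, gave 0.55 to 9.1 CPM in A20 deletion and 0.385 to 18.2 CPM in control.

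The genes whose profile over the 5 libraries was most like that of Nrarp were Sema4b, Hlf and Cd276, with a root mean square difference between centred log2 CPM profiles of 0.16, 0.22 and 0.24. Sema4b, the closest of 8200 candidates, stood at 15.6, 28.8 and 22 CPM in A20 deletion replicates 1 to 3, against 65.4 and 79 CPM in the controls. For Notch1 the closest were Dennd4c, Usp9x and Tnrc18, at 0.07, 0.08 and 0.12. Usp9x, a deubiquitinase, was at 164, 37.8 and 54.2 CPM in A20 deletion replicates 1 to 3, against 157 and 133 CPM in the controls, the same split between A20 deletion libraries as Notch1. Rbpj was most like Rnf114, St5 and Capns1, at 0.03, 0.03 and 0.04. For Hes1 the nearest were Ltc4s, Zfp322a and Abhd3, at 0.28, 0.29 and 0.29, a larger distance than for the other genes.

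The calls changed with the library that was left out. All 3 calls were lost without control replicate 1, without control replicate 2 or without A20 deletion replicate 3, settings in which 0.139%, 0% and 0.769% of all genes were called. Without control replicate 2 edgeR called 0 genes, with 1323 at an unadjusted p under 0.05. Nrarp alone was called without A20 deletion replicate 2 (1.53% of all genes), and without A20 deletion replicate 1 Notch1, Notch2, Notch4, Jag2 and Nrarp were called (32.4% of all genes). The fold changes themselves moved less. With libraries left out the log2 value lay between -2.17 and -1.69 for Nrarp, between -1.44 and -1.06 for Jag2 and between -1.30 and -0.999 for Notch4, and a direction that non-overlapping groups fix is no sign of stability.

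**Figure D4:**
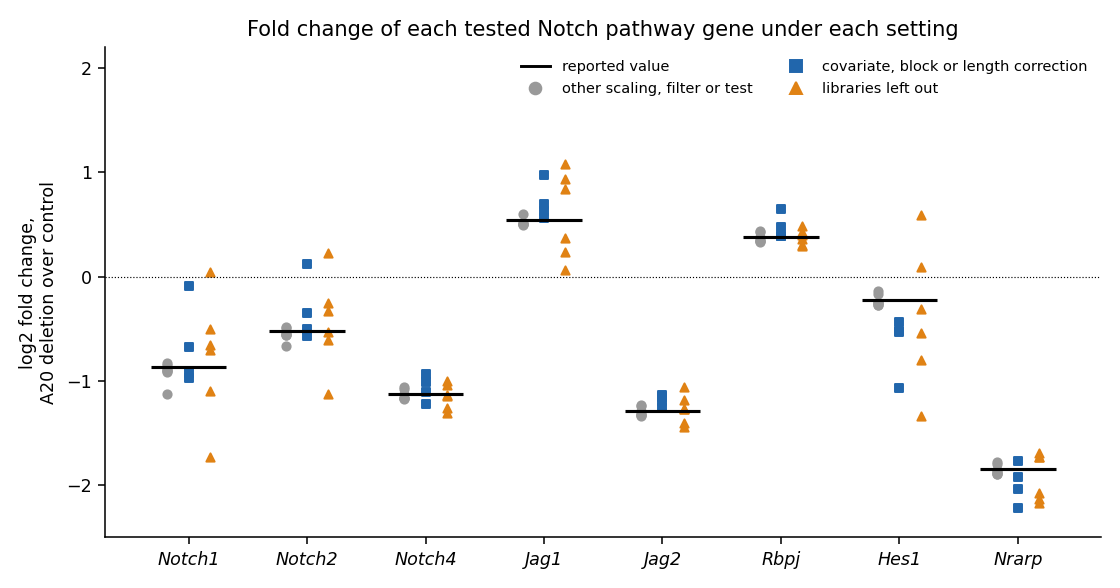
Log2 fold change (A20 deletion over control) of the 8 tested members as reported (black line) and under the alternative settings: other scalings, filters and tests (grey circles), covariates, block and length correction (blue squares) and libraries left out (orange triangles). Nrarp, Jag2 and Notch4 stay below 0 throughout, whereas Notch1, Notch2 and Hes1 cross 0 when libraries are left out.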

How the data were processed

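Poly-A or total RNA selection, the gene annotation, the strand setting and the handling of multiply mapped reads were not given in the sources used here. Cells were released with papain and sorted for eYFP, and libraries were made from 10 ng of RNA with the NEBNext Ultra II kit, per the labels' protocols. The deposited values are raw counts per gene, 1 table for all 5 libraries, and the submitters' processing notes name STAR 2.4.0j, featureCounts, DESeq2 1.22.1 and GRCm38. Of the 41388 gene identifiers, 40340 matched a symbol (GENCODE M21 and RefSeq tables).

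The counts were tested with edgeR 4.0.16 (quasi-likelihood test, TMM scaling, filterByExpr with a minimum count of 10 and a minimum total of 15, Benjamini-Hochberg adjustment over 12240 genes, threshold 0.05), in R 4.3.3. The fit was tested on simulated counts. Alternatives used DESeq2 1.42.0, limma-voom 3.58.1, other scalings and filters, a replicate block, covariates, a length correction and libraries left out. Intervals and 3-count floors cover counting error only. Libraries of a group differed beyond sampling noise (chi-square per degree of freedom of at least 14.3).

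The members, lists and tests were chosen with earlier results of these data known. Named beside the 9 members are the up to 3 genes of each role with the smallest p, the 3 genes most like Nrarp, Hes1, Notch1 and Rbpj (mean log2 CPM of at least 3), the top marker of each list and Cldn5, Pecam1 and Cdh5. Other genes named were picked after their values were seen. Some items of these lists are not reported here.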

Additional observations from a re-analysis of the deposited data

How the results depend on the processing

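Notch4, Jag2 and Nrarp were called under other scalings, the stricter filter, DESeq2, limma-voom and a factor for libraries with Xist (chosen after seeing the data). Jag2 was not called with the mitochondrial covariate (417 of all genes called) or without A20 deletion replicates 2 and 3 (394), and Notch4 was not called with the length correction (338). With no filter Notch1 was called as well. Upper quartile scaling put the median of all genes at 0.11 and no filter at 0.17 (log2), against 0.05 as reported. The replicate block left 1 member called, Nrarp, and 260 genes. Same-numbered libraries deviated together weakly (r of 0.26 and 0.17). A20 deletion replicate 3 and control replicate 2, with different numbers, did so as well (r of 0.217), so this likeness is not particular to shared numbers. With 2 controls, the deviations of the controls mirror each other. Only 2 numbers are shared and the labels do not say that they pair samples. With 1 library left out, members called ranged from 0 to 5, other pathway genes from 0 to 9 higher and from 0 to 18 lower, and all genes from 0 to 3923. All genes called were 1701 with no filter, 1011 with DESeq2, 211 with limma-voom and 824 with the Xist factor. Other pathway genes called higher were 5 with no filter, 3 with DESeq2 and 2 with the Xist factor. Those called lower were 3 with no filter and 1, Numb, with library size alone, DESeq2, the length correction or the Xist factor. Fits with libraries left out have fewer degrees of freedom, and the cause of these changes was not tested.

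Some genes that were not called changed sign in log2 fold change. With 1 library left out the values ranged from -0.018 (control replicate 2) to 1.05 (control replicate 1) for Dll1, from -0.46 to 0.037 (A20 deletion replicates 1 and 2) for Ccnd1, from -0.63 to 0.41 (control replicates 2 and 1) for Myc and from -0.11 to 0.22 (A20 deletion replicates 3 and 1) for Hes6, which was also at -0.06 when control replicate 1 was dropped. Dner was at -0.25 with limma-voom, -0.47 with the replicate block and -2.16 with the mitochondrial share as a covariate. With A20 deletion replicates 2 and 3 both dropped Ccnd1 was at 0.29 and Hes6 at -0.27, and with the mitochondrial covariate they were at 0.24 and -0.14. Hes6 was at -0.13 with the block and -0.24 with the length correction, and Myc at 0.009 with the Xist factor. Fits with 1 library in a group assume that it varies like the other group. Jag1 and Hey1 lie near the depth limit.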

Other observations

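Dlk1, a non-canonical Notch ligand best known from preadipocytes and imprinting, did not have enough libraries with counts to be tested. It had 0, 1 and 788 counts in A20 deletion replicates 1 to 3, against 0 and 3 in the controls, which is 80.3 CPM in replicate 3. It was the 1 gene with over 300 counts in that library and under 30 in each other library, as Vwf was in A20 deletion replicate 1 and Rps3a3 in control replicate 2. These genes were picked after their values were seen.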
